A study of Caenorhabditis elegans with 2 samples.

Results

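The nuclear transfer RNA (tRNA) genes of Caenorhabditis elegans were examined for summits in ChIP-seq peak lists of a tagged forkhead factor. Chromatin immunoprecipitation followed by sequencing (ChIP-seq) recovers DNA associated with a chosen protein. All 612 nuclear genes of biotype tRNA in the Ensembl annotation of assembly WBcel235 were taken, of 46890 nuclear genes in all, and the rule uses biotype alone, not a measured value. A tRNA gene counted as having a summit where the summit of a peak lay inside the gene or within 100 bp of either end. The libraries came from whole late embryos of mixed sex, of unknown age, from strain OP337 as labelled, with the allele unc119(ed3) and the transgene wgIs377, which joins fkh-10 to TY1, EGFP and FLAG tags and carries unc119. The precipitation was directed at eGFP-FKH-10 on fragments of 150 to 350 bp, in 2 biological replicates of 1 group. That label gives a strain number and an insertion number that do not match, so both are called here by their label, eGFP-FKH-10 libraries. The sources used here do not give the promoter or the copy number of the transgene, and late embryos hold many cell types, so a summit belongs to no named cell type.

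The peak lists used are all on the ce11 build, which is the same assembly. The relaxed lists of replicate 1 and replicate 2 held 27900 and 30000 peaks, the relaxed list called on both replicates together (pooled) held 7443, and the thresholded list (optimal) held 378, which are the pooled peaks with a signal of at least 36.6. The signal is the height of a peak in the authors' units and was compared only within a list. The labels name a control experiment, but no control or untagged list was analysed here, so a summit at a tRNA gene cannot be told apart from one that this material would give without the tagged protein. Read depth is unknown, and all 95% intervals below treat each gene or summit as an independent count and cover counting error only.

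Genes for tRNAs are transcribed by RNA polymerase III from a promoter that lies inside the gene. The A box and the B box, which become the D loop and the T loop of the tRNA, are recognised by TFIIIC, which places TFIIIB upstream of the start, and a run of T on the coding strand ends transcription. In C. elegans many tRNA genes are present as identical copies, and many lie within introns of protein-coding genes.

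The gene sequences below, from the RefSeq genome of WBcel235, belong to the highest tRNA gene of each of 6 isotypes (the amino acid that a tRNA carries) in the optimal list and show how alike the internal promoter letters are among genes of different isotypes. Each is given 5′ to 3′ on the gene's strand. Capitals mark the B box letters GGTTCGA or the match to them with 1 mismatch.
C04A11.t1 (Leu): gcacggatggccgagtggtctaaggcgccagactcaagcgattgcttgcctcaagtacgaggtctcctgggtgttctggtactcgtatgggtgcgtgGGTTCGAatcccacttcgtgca
R04D3.t2 (Val): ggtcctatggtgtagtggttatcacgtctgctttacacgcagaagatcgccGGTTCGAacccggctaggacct
ZC455.t1 (Ser): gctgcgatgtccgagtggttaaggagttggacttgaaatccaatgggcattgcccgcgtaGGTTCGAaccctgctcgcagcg
T28B4.t1 (Phe): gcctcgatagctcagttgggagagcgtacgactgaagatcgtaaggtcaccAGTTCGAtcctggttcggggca
F15G9.t1 (Ala): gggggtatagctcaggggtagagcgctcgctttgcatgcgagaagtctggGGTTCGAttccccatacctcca
C33G3.t2 (Lys): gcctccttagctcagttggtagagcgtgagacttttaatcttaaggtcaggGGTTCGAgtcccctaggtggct

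The exact B box letters stand in 5 of these 6 genes, and T28B4.t1 has the match with 1 mismatch. C04A11.t1 (X, 13665555 to 13665673, plus strand) is the longest of them at 119 bp, with an intron of 35 bp. The others run over X 13307034 to 13307106 on the plus strand (R04D3.t2), V 12780386 to 12780467 on the minus strand (ZC455.t1), X 6593596 to 6593668 on the plus strand (T28B4.t1), X 9743589 to 9743660 on the plus strand (F15G9.t1) and X 14063946 to 14064018 on the minus strand (C33G3.t2).

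The 612 genes hold only 200 distinct sequences. A sequence found in 1 gene alone accounts for 143 genes, and 57 sequences found in several genes account for the other 469, with up to 29 identical copies. Gene lengths run from 64 to 122 bp with a median of 72 bp, and 29 genes have an intron. Chromosome X carries 276 of the genes, or 45.1%, and the autosomes carry 336. Of all tRNA genes 290 lie inside a protein-coding gene, and 236 have another tRNA gene within 1 kb.

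A summit in the optimal list lay at 43 of the 612 tRNA genes (7.03%, Wilson interval 5.26 to 9.33), where 0.685% of all nuclear genes had one by the same rule and 0.0971% of windows of 272 bp tiling the nuclear genome held one. The window width is that of a tRNA gene of median length with its flanks, and it sets aside that long genes catch more summits. Pooled summits lay at 182 tRNA genes (29.7%, 26.3 to 33.5), against 9.98% of all nuclear genes and 2.01% of windows. In replicate 1 there were 196 (32.0%, 28.5 to 35.8), against 27% of genes and 7.49% of windows. In replicate 2 there were 228 (37.3%, 33.5 to 41.2), against 29.1% of genes and 8.05% of windows. When each replicate was cut to its strongest 378 peaks, 31 tRNA genes had a summit in replicate 1 (0.618% of all nuclear genes, 0.0958% of windows) and 37 in replicate 2 (0.657% and 0.0982%). No summit of any of the 4 lists lay at 316 tRNA genes (51.6%).

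Because neighbouring genes can lie at the same peak, the 43 optimal genes rest on 40 summits. The pairs that share a summit are M02F4.t1 with M02F4.t2, F15G9.t1 with F15G9.t2, and C53C7.t1 with C53C7.t2, all on X. The tRNA genes with their flanks make up 0.164% of nuclear bases, so the share of optimal summits at them was 67.99 times their share of bases. For the pooled summits the ratio was 14.2, and it was 4.19 in replicate 1 and 4.61 in replicate 2.

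Summits at tRNA genes were concentrated among the higher peaks of the relaxed lists without including the very highest. Of the 100 highest nuclear summits of the pooled list 9% lay at tRNA genes, and the share was 16% at ranks 101 to 200, 9% at ranks 201 to 400, 7.5% at ranks 401 to 800 and 4.38% at ranks 801 to 1600. It was 0.688% at ranks 3201 to 6400 and 1.47% in the last 1020. Replicate 1 had 10%, 7%, 8% and 4.75% in the first 4 of these classes, and replicate 2 had 5%, 9%, 10% and 4.5%. Among all peaks of a list, mitochondrial ones included, the highest tRNA summit ranked 26 in the pooled list, 46 in replicate 1 and 39 in replicate 2. Within the pooled list, the median tRNA summit had a signal of 26.4, against 19.2 over all nuclear summits. In replicate 1 these medians were 13.4 and 9.62, and in replicate 2 they were 10.5 and 6.80. Within the optimal list, which holds only high peaks, the tRNA summits ranged from 37.1 to 85.5 with a median of 47.2, close to the 46.0 of all nuclear summits there.

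**Figure D1:**
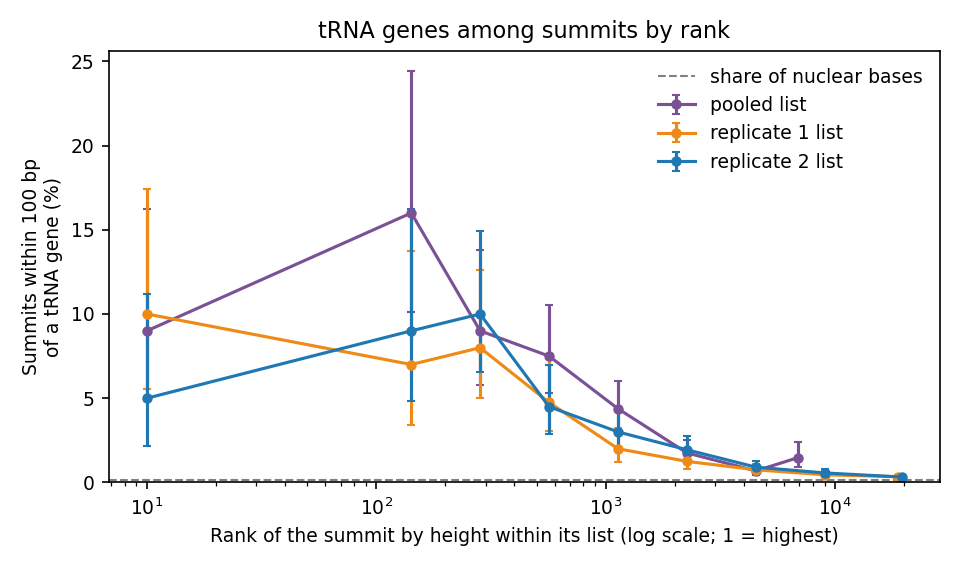
Share of nuclear summits that lay within 100 bp of a tRNA gene (y axis, %) in classes of rank by height (x axis, log scale, each point at the geometric middle of its class) for the pooled list and each replicate. Bars are Wilson 95% intervals of counting error. The pooled share peaks at 16% at ranks 101 to 200, and the dashed line is the 0.164% of nuclear bases that these genes and flanks occupy.

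The highest tRNA gene was C04A11.t1 (WBGene00000308), a leucine tRNA gene on X outside any protein-coding gene and with no identical copy. Its summit had a signal of 85.5 in the optimal list, 43.8 in replicate 1 and 38.1 in replicate 2, and it was the highest tRNA gene in all 3 lists. The summits of the 3 lists lay 11, 9 and 23 bp downstream of its 5′ end. The valine gene R04D3.t2 followed with 67.2 in the optimal list, 37.3 in replicate 1 and 30.4 in replicate 2. The next summit, at X 3036101, lay between the diverging genes M02F4.t1 (Gly) and M02F4.t2 (Glu), 63 and 54 bp upstream of their 5′ ends, with 61.8 in the optimal list, 39.1 in replicate 1 and 23.3 in replicate 2. One summit in that place cannot be divided between the genes.

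The serine gene ZC455.t1 on V, inside the protein-coding gene ZC455.1 on the opposite strand, was the highest on an autosome. It had 61.6 in the optimal list, 39.0 in replicate 1 and 20.02 in replicate 2. The phenylalanine gene T28B4.t1, inside fbxl-4 on the same strand, had 60.4, 27.3 and 33.4 in these lists. The glutamate gene C28G1.t1, which overlaps an exon of C28G1.2, also had 60.4 in the optimal list, with 31.8 in replicate 1 and 31.5 in replicate 2. These genes were thus high in both replicates, but not in the same order.

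The alanine genes F15G9.t1 and F15G9.t2 lie 86 bp apart inside him-4, which encodes the extracellular matrix protein hemicentin. They share a summit with 57.2 in the optimal list, 23.7 in replicate 1 and 30.9 in replicate 2, placed between the end of the first and the start of the second. The lysine gene C33G3.t2 had 56.1 in the optimal list, 34.6 in replicate 1 and 17.4 in replicate 2. The other genes among the 20 highest had optimal signals from 54.9 down to 48.4. They are W03G11.t1 (Lys), R11.t1 and C02B4.t2 (Tyr), F34H10.t1 (Ala), ZK678.t1 (Leu), R04A9.t1 (Gln), F38G1.t2 (Asp) and F41D9.t3 (Asn) on X, C04A2.t1 (Leu) on II and K06A4.t1 (Ala) on V. Of the 20 highest, 17 lay on X.

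The lowest optimal gene was M57.t1 (Arg), inside unc-33 on IV, with a signal of 37.1 in the optimal list, 21.3 in replicate 1 and 16.6 in replicate 2. The nearest tRNA gene below the threshold was F47E1.t1 (Gln) on X, with 36.5 in the pooled list. It had no summit in replicate 1 and 10.02 in replicate 2, where the summit lay 22 bp upstream of the gene, against 137 bp downstream of its 5′ end in the pooled list.

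All 43 optimal tRNA genes had a summit in both replicates, with signals of 13.8 to 43.8 (median 25.1) in replicate 1 and 11.1 to 38.1 (median 20.97) in replicate 2. The optimal list is drawn from the reads of both replicates, so this is partly built in. Among all peaks of a replicate, their summits ranked as low as 3507 in replicate 1 and 2968 in replicate 2. The other 139 genes with a pooled summit had a summit in replicate 1 in 107 cases (median signal 13.5) and in replicate 2 in 111 (median 11.4).

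Across all tRNA genes, 136 (22.2%) had a summit in both relaxed replicate lists, where 15.8% of all nuclear genes had. Another 60 had one in replicate 1 only, 92 in replicate 2 only, and 324 in neither. Of the replicate 1 genes 69.4% were also in replicate 2, and of the replicate 2 genes 59.6% were also in replicate 1. For all nuclear genes these shares were 58.4% and 54.2%. Over the 136 genes with a summit in both, the heights had a Spearman rho of 0.488, described across genes that share libraries and not tested. Over all 7394 nuclear genes with a summit in both it was 0.283. A long gene can take different peaks in the 2 replicates, and protein-coding genes have a median length of 2027 bp, against 72 bp for tRNA genes. The rho and the shares over all nuclear genes are thus not matched in length to those of tRNA genes. Within the 43 optimal genes rho was 0.028, a range already narrowed by the threshold on the pooled signal. Among the 378 strongest peaks of each replicate, 18 tRNA genes were shared, and the matching count over all nuclear genes was not made. All 18 were optimal genes, which is partly built in, because the optimal list is drawn from the reads of both replicates. The summits that the replicates placed at the same gene lay a median of 39 bp apart.

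**Figure D2:**
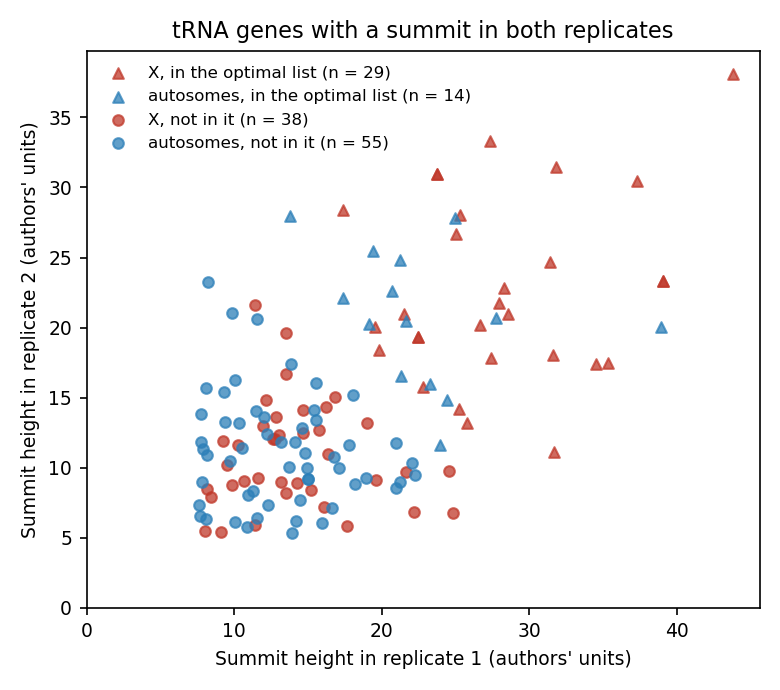
Height of the summit at each of the 136 tRNA genes with a summit in both replicates, in replicate 1 (x axis) and replicate 2 (y axis), in the authors' units. Triangles are genes in the optimal list (29 on X, 14 on autosomes), circles the others, red X and blue autosomes. C04A11.t1 stands at the upper right with 43.8 and 38.1. The optimal genes range down to 13.8 in replicate 1 and 11.1 in replicate 2, and on each axis their heights overlap those of the other genes.

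Genes on X held most of the high summits at tRNA genes. Of all 358 nuclear optimal summits, X (17.7 Mb) carried 98, I (15.1 Mb) 86, and II to V (13.8 to 20.9 Mb) 35 to 50 each. Away from tRNA genes the optimal summits were 72 on X and 246 on autosomes. Shares of all nuclear genes by chromosome are not given here. How much of the excess on X is particular to tRNA genes therefore cannot be read. In the optimal list 29 of 276 tRNA genes on X had a summit (10.5%, 7.42 to 14.7), against 14 of 336 on autosomes (4.17%, 2.50 to 6.87), a difference of 6.34 percentage points (Newcombe 95% interval 2.23 to 10.8). Among the 378 strongest peaks the difference was 7.27 points (3.76 to 11.4) in replicate 1, with 25 genes on X and 6 on autosomes, and 4.83 points (0.993 to 9.06) in replicate 2, with 24 and 13. The relaxed lists gave smaller differences. In the pooled list 31.2% of genes on X and 28.6% on autosomes had a summit, in replicate 1 34.8% and 29.8%, and in replicate 2 36.6% and 37.8%, and each of these differences had an interval that included 0. Genes on X that had a summit also had higher ones. The median pooled signal was 30.2 on X and 24.99 on autosomes, the median signal in replicate 1 was 14.5 on X and 13.1 on autosomes, and that in replicate 2 was 11.8 on X and 10.1 on autosomes.

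The step from the pooled to the optimal list restates the difference in height for summits in place of genes. Passing it means only a pooled signal of at least 36.6, so it is not a second comparison. Of the 82 pooled summits at tRNA genes on X, 26 passed the threshold (31.7%), against 14 of 91 on autosomes (15.4%), a difference of 16.3 points (3.69 to 28.6). Away from tRNA genes the shares were 5.27% of 1365 summits on X and 4.18% of 5882 on autosomes, a difference of 1.09 points (-0.103 to 2.49). Whether these 2 differences differ from each other was not tested.

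By chromosome, 1 of 66 tRNA genes on I (1.52%), 2 of 57 on II (3.51%), 4 of 64 on III (6.25%), 3 of 71 on IV (4.23%) and 4 of 78 on V (5.13%) had an optimal summit. The intervals of these 5 chromosomes overlap, so no order among them can be read. The gene on I is C37A2.t1 (Cys), inside cye-1, with a signal of 44.8.

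**Figure D3:**
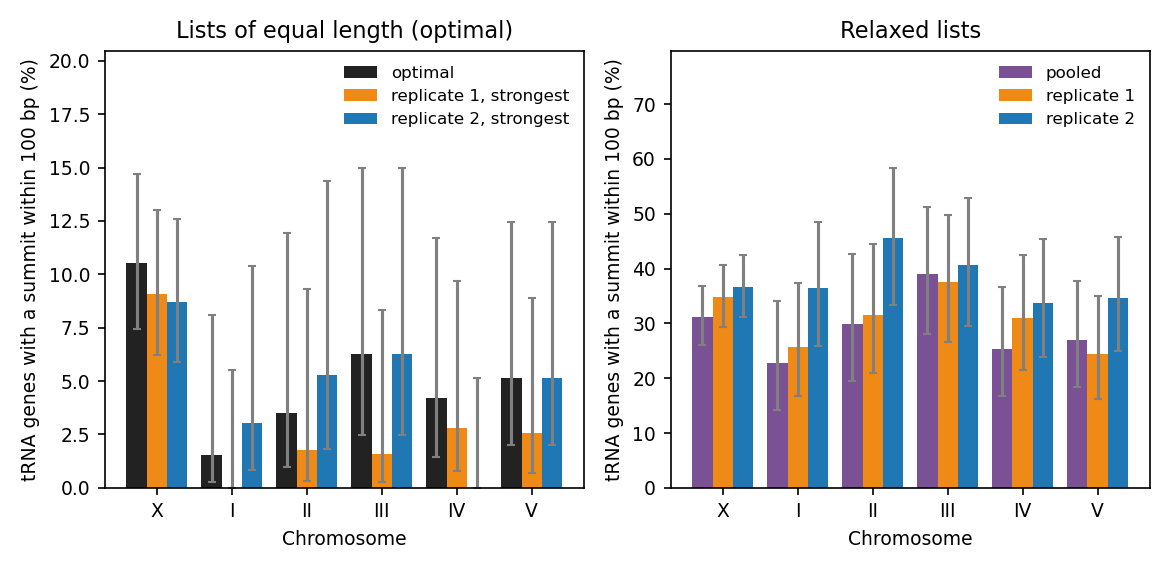
Share of the tRNA genes of each chromosome with a summit within 100 bp (y axis, %), with Wilson 95% intervals, in the optimal list and the 378 strongest peaks of each replicate (left) and in the relaxed lists (right). X stands at 10.5% in the optimal list and at 9.06% and 8.70% in the strongest peaks of replicates 1 and 2, and in the relaxed lists it does not stand apart.

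Genes that had another tRNA gene within 1 kb had an optimal summit less often than isolated ones, at 9 of 236 (3.81%) against 34 of 376 (9.04%), a difference of -5.23 points (-9.01 to -1.11). In the relaxed lists the difference was -7.30 points (-14.6 to 0.307) in replicate 1 and -10.3 points (-17.8 to -2.44) in replicate 2. All 9 clustered optimal genes were on X, where they were 9 of 135 (6.67%), against 20 of 141 isolated genes (14.2%). On autosomes 0 of 101 clustered genes had one, with a Wilson upper limit of 3.66%, against 14 of 235 isolated genes (5.96%). The interval of the difference included 0 when only the 378 strongest peaks of replicate 1 (-2.73 points) or replicate 2 (-2.25 points) were used. It also did when clustering was set at 500 bp (-3.21 points) or 5 kb (-3.83 points). The 109 genes with a neighbour within 200 bp had an optimal summit in 7 cases (6.42%), 6 of them in the pairs that share a summit, and the 127 genes with a neighbour 200 to 1000 bp away had 2.

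Position inside a protein-coding gene made no detectable difference over all chromosomes. Of the tRNA genes inside one, 22 of 290 (7.59%) had an optimal summit, against 21 of 322 outside (6.52%), a difference of 1.06 points (-3.04 to 5.32). On autosomes they were 12 of 194 inside (6.19%) and 2 of 142 outside (1.41%), a difference of 4.78 points (0.345 to 9.21). The relaxed list of replicate 2 had a difference of 11.8 points (1.31 to 21.7) there, and that of replicate 1 one of -2.12 points (-12.1 to 7.61). In the 378 strongest peaks the difference on autosomes was 3.09 points (-0.0248 to 6.58) in replicate 1 and 0.603 points (-4.29 to 4.90) in replicate 2. On X they were 10 of 96 inside (10.4%) and 19 of 180 outside (10.6%).

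Among genes inside a host, 13 of 166 on the host's strand (7.83%) and 9 of 123 on the opposite strand (7.32%) had an optimal summit, a difference of 0.514 points (-6.29 to 6.66). The pooled list and the strongest peaks of replicate 1 gave the opposite sign, at -1.38 and -1.68 points, both with intervals that include 0. Of tRNA genes on the plus strand of the chromosome 24 of 298 had an optimal summit, against 19 of 314 on the minus strand. Only 10 tRNA genes overlap a protein-coding exon, and C28G1.t1 and K02D7.t1 (Asp, inside grl-26) are the 2 of them with an optimal summit.

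Over all chromosomes together, most optimal genes had the summit within 50 bp of the 5′ end, but X and autosomes differed, as given below. Counted from the 5′ end with downstream positive, the median position was 15 bp, with quartiles at -16.5 and 40 bp. Of the 43 genes, 22 had the summit inside, 16 upstream and 5 downstream, and 28 had it within 50 bp of the 5′ end. The medians were 37.5 bp in the pooled list, 30.5 bp in replicate 1 and 27 bp in replicate 2. Most optimal peaks have a fixed width of 336 bp, including all 40 at tRNA genes, so a summit here is a position within a wide interval.

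On X the summit lay outside the gene more often than on autosomes. In the optimal list 10 of 29 genes on X had it inside (34.5%), with a median position of -4 bp, against 12 of 14 on autosomes (85.7%), with a median of 39 bp, a difference in the share of -51.2 points (-69.04 to -19.8). The 29 genes on X rest on 26 summits, because the 3 pairs that share a summit are all on X. A shared summit counts once for each gene here, and the interval treats these genes as independent. In the pooled list the shares were 34.9% on X and 55.2% on autosomes, a difference of -20.3 points (-33.6 to -5.84). The separate replicates did not give it with an interval free of 0. The difference was -6.50 points (-19.8 to 7.17) in the relaxed list of replicate 1 and -7.46 points (-19.8 to 5.35) in that of replicate 2. In the strongest peaks it was -43.3 points (-64.8 to 0.777) in replicate 1 and 7.37 points (-24.2 to 35.6) in replicate 2. When an optimal summit had to lie inside the gene to count, X and autosomes differed by 0.0518 points (-2.996 to 3.34). The strongest peaks of replicate 1 had the summit inside 10 of the 276 genes on X and 5 of the 336 on autosomes. In those of replicate 2 the counts were 11 and 5. Summits of the 2 replicates at the same gene lay a median of 39 bp apart, so inside and flank are not sharply separated.

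**Figure D4:**
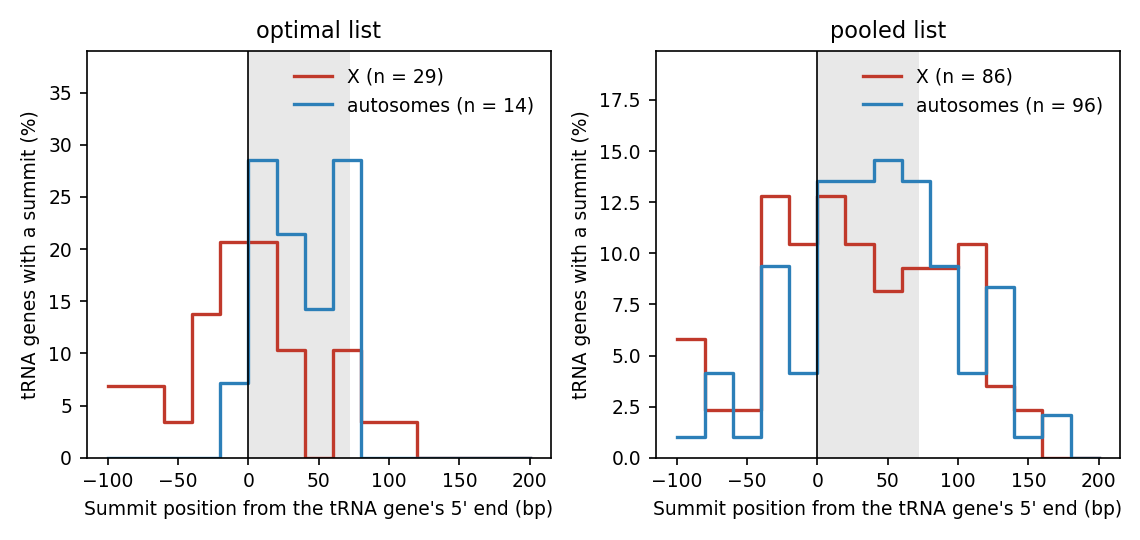
Position of the summit relative to the 5′ end of the tRNA gene (x axis, bp, downstream positive) as the share of genes with a summit (y axis, %) in classes of 20 bp, in the optimal list (left) and the pooled list (right), for X (red) and autosomes (blue). The grey band marks a gene of median length, 72 bp. In the optimal list the median is -4 bp on X and 39 bp on autosomes.

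The B box letters gave no detectable difference between tRNA genes with and without a summit. The exact B box letters GGTTCGA on the gene's strand were in 395 of 612 genes (64.5%), against 0.264% of nuclear windows of 72 bp read on the plus strand, and 27 of these 395 (6.84%) had an optimal summit, against 16 of the 217 without the letters (7.37%), with an interval of the difference from -5.29 to 3.50 points. The A box letters, TGGC and AGTGG with 2 or 3 bases between them, were in 58 genes (9.48%, against 0.0523% of windows), of which 7 (12.1%) had an optimal summit, against 36 of 554 without (6.50%), with an interval of the difference from -0.970 to 16.5 points. A wider A box pattern, chosen after the values were seen, was in 563 genes. There the shares in the optimal list were 40 of 563 (7.10%) and 3 of 49 (6.12%), but in replicate 1 they were 33.2% and 18.4%, and in replicate 2 38.9% and 18.4%, with differences of 14.8 points (1.32 to 24.1) and 20.5 points (6.96 to 29.9). A run of TTTT lay within 20 bp downstream of 602 genes (98.4%), where 25.8% of windows of 20 bp hold one, and all 43 optimal genes had it. A match to letters is a description and not a measured site of a factor.

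Genes whose sequence occurs once had a summit less often than genes with identical copies. They had an optimal summit in 4 of 143 cases (2.80%), against 39 of 469 for repeated sequences (8.32%), a difference of -5.52 points (-8.84 to -0.813). The difference was -14.2 points (-21.3 to -5.88) in the pooled list, -16.2 points (-23.4 to -7.85) in replicate 1 and -13.0 points (-21.04 to -4.08) in replicate 2. Among the 378 strongest peaks it was -4.78 points (-7.53 to -0.778) in replicate 1 and -2.41 points (-5.87 to 2.62) in replicate 2, where the interval includes 0. The 4 are C04A11.t1, the highest of all, C14B9.t2 (Leu), F57F5.t1 (Ile) and K06A4.t1. This comparison was added after the values were seen, and the sources used here do not say how reads that match several copies were assigned. The wider A box pattern was in 81.1% of the genes with a single sequence, and within the genes that have the pattern the optimal difference was -4.61 points (-8.18 to 0.926). In the windows of the tRNA genes, with flanks, a median of 79.7% of words of 36 bases occur once in the genome. It was 78.9% for the genes with an optimal summit and 79.7% for those without.

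Some genes of identical sequence had a summit where others had none. Among the 469 genes with identical copies, 39 (8.32%) had an optimal summit and 155 (33.0%) a pooled one. Shares of this size alone give divided sequences. The number they would give was not computed, so the counts that follow are a description. Of the 57 sequences with several genes, 28 had at least 1 gene with and at least 1 without an optimal summit, 29 had none with, and 0 had every gene with one. In the pooled list 40 were divided, 6 had every gene with a summit and 11 none. The upstream 50 bases of 2 high genes and of an identical copy of each that has no summit in any list are given 5′ to 3′ on the gene's strand, to show how far the flanks differ where the genes do not.
ZC455.t1 (Ser, V 12780468 to 12780517, optimal summit): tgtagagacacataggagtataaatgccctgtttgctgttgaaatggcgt
B0395.t1 (Ser, X 16042690 to 16042739, no summit): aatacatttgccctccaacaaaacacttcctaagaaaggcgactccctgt
T28B4.t1 (Phe, X 6593546 to 6593595, optimal summit): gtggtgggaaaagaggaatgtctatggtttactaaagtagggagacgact
C06G4.t1 (Phe, III 7978544 to 7978593, no summit): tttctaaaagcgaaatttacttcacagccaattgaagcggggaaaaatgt

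The flanks of ZC455.t1, 100 bp to each side, hold 41.5% G and C, and those of its copy B0395.t1 hold 28.0%. For T28B4.t1 and its copy C06G4.t1 the values are 34.5% and 30.5%. Over all genes the median was 39.5% for those with an optimal summit and 36% for those without, and in the pooled list 39.5% with and 34.5% without. The part of base composition in the counts of summits was not tested.

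Genes with an intron had an optimal summit in 5 of 29 cases (17.2%), against 38 of 583 without one (6.52%), a difference of 10.7 points (0.809 to 28.1). The 5 are C04A11.t1, C14B9.t2, F57F5.t1, R11.t1 and C02B4.t2. In the relaxed lists the differences were 2.58 points (-12.5 to 21.1) in replicate 1 and 15.2 points (-2.56 to 32.5) in replicate 2, both with intervals that include 0. A tRNA gene in the window from 1 kb upstream to 500 bp downstream of a protein-coding 5′ end had an optimal summit in 8 of 138 cases (5.80%), against 35 of 474 elsewhere (7.38%), with an interval of the difference from -5.51 to 4.02 points. Neither the split by intron nor the split by this window was among the planned comparisons.

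Summits were spread over the isotypes. Every isotype with at least 10 genes had an optimal summit at 1 gene or more except His, with 0 of 20 and a Wilson upper limit of 16.1%. The counts were highest for Leu (5 of 39), Ala (4 of 34) and Glu (4 of 41). Met, Ile, Asp and Ser had 3 each, of 20, 29, 27 and 39 genes. Pooled summits were at Cys in 10 of 13 genes (76.9%) and at Val in 4 of 31 (12.9%). For Cys the replicates had 9 and 7 of 13. Cys and Val were singled out after the values were seen, as the highest and the lowest share among isotypes with at least 10 genes, and the 13 Cys genes hold only 2 distinct sequences.

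Related RNA genes differed in how often they had a summit. Of the 209 tRNA pseudogenes in the RefSeq annotation, 1 had an optimal summit (0.478%, 0.0845 to 2.66), against 43 of 612 tRNA genes. It is D1046.t1 on IV (8927200 to 8927273, plus strand), with a signal of 42.8 in the optimal list, 24.2 in replicate 1 and 26.7 in replicate 2, and no tRNA gene within 73531 bp. Pooled summits lay at 8 tRNA pseudogenes (3.83%, against 29.7% of tRNA genes), in replicate 1 23 (11%, against 32.0%) and in replicate 2 25 (12%, against 37.3%). The difference in share, tRNA genes minus pseudogenes, was 6.55 points (3.74 to 8.89) in the optimal list, 21.02 (14.9 to 26.2) in replicate 1 and 25.3 (18.97 to 30.7) in replicate 2. The windows of tRNA genes hold a median of 79.7% of words that occur once in the genome, against 99.6% for tRNA pseudogenes, and the part of repeated sequence in this difference was not tested. Genes for small nucleolar RNAs (snoRNAs), which guide modification of ribosomal RNA, had 26 of 346 with an optimal summit (7.51%, 5.18 to 10.8), a difference of -0.488 points (-4.20 to 2.79) for tRNA genes minus snoRNA genes. They had 61 in the pooled list (17.6%, 13.98 to 21.99), and tRNA genes lay 12.1 points (6.52 to 17.3) above them there, 8.62 points (2.68 to 14.2) in replicate 1 and 9.51 points (3.31 to 15.4) in replicate 2. Small nuclear RNA genes, most of whose products act in splicing, had 3 of 129 in the optimal list, and miRNA genes had 2 of 261. None of the 20 annotated rRNA genes had a summit in any list, with a Wilson upper limit of 16.1%. Among the 19973 protein-coding genes, 155 (0.776%) had an optimal summit within the gene or 100 bp, and 37 (0.185%) had one within 100 bp of the 5′ end, where the tRNA genes had 42 of 612 (6.86%).

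**Figure D5:**
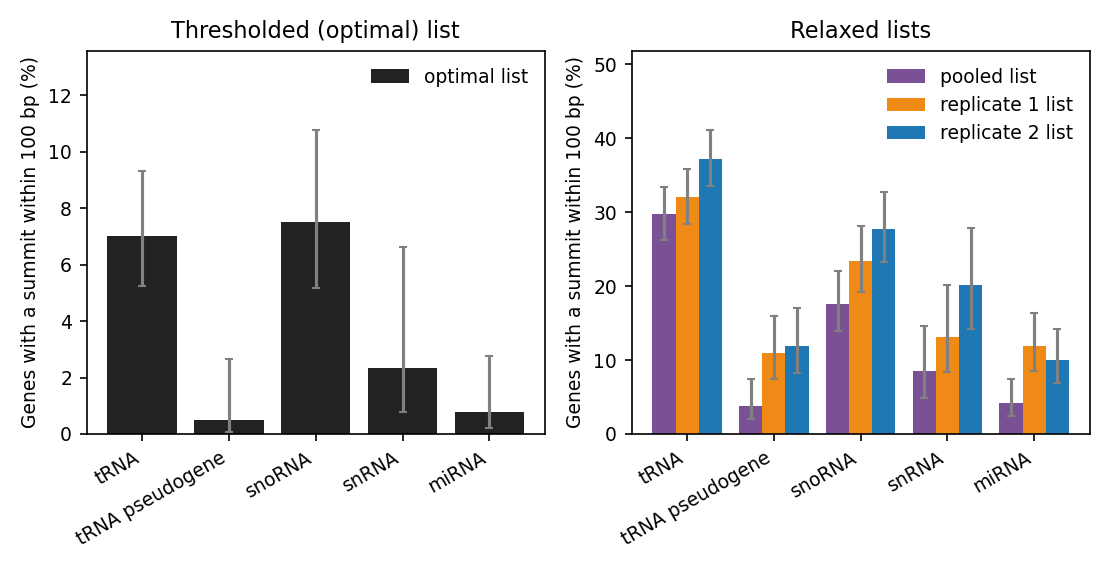
Share of genes of each class with a summit within 100 bp (y axis, %), with Wilson 95% intervals, in the optimal list (left) and in the relaxed lists (right). In the optimal list tRNA genes stand at 7.03% and snoRNA genes at 7.51%, with tRNA pseudogenes at 0.478%, and in the relaxed lists tRNA genes stand above the 4 other classes.

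Protein-coding genes for the charging and transcription of tRNA were too few for their counts of optimal summits to be told apart from the background share. For the window from 1 kb upstream to 500 bp downstream of the 5′ end, 1 of 32 aminoacyl-tRNA synthetase genes, whose products charge tRNAs with amino acids, had an optimal summit, against 0.976% of all protein-coding genes. It is ears-2, a glutamyl-tRNA synthetase gene on IV, with a signal of 76.5 in the optimal list, 44.7 in replicate 1 and 29.9 in replicate 2, and a summit 46 bp from the 5′ end with no tRNA, snoRNA or snRNA gene within 100 bp. In the pooled list 3 of 32 had one, with yars-2 (19.4) and aars-1 (17.0) beside ears-2, against 13.3% of all protein-coding genes. The replicates had 9 and 16 of 32, against 39.6% in replicate 1 and 40% in replicate 2. These 32 genes were taken by symbol and not sorted by whether their products charge nuclear or mitochondrial tRNAs. Of the 11 genes of RNA polymerase III and its factors, 0 had an optimal or pooled summit, 3 had one in replicate 1 (rpac-19, rpac-40 and snpc-4) and 6 in replicate 2 (rpc-1, rpc-2, rpac-40, brf-1, tbp-1 and tftc-5), of which rpac-40, a subunit shared with RNA polymerase I, is the gene found in both.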

How the data were processed

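Peak lists from 2 biological replicates of 1 group were used. Per the deposited lists of files, the relaxed lists were made as input for the irreproducible discovery rate, which compares peak ranks between replicates, and the optimal list was derived from them. The deposited signal is the peak height given by the authors' caller, and the sources used here do not give its scale, the aligner, the caller, the threshold, the depth or the reads used. Coordinates are 1-based on ce11 (WBcel235), with genes from Ensembl release 115 and isotypes, introns and sequences from RefSeq for that assembly. All 612 genes matched RefSeq by name and position, and 607 have an isotype there. Mitochondrial peaks and the ce10 lists were not used.

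Each gene took its highest summit within 100 bp. Shares have Wilson and differences Newcombe 95% intervals, and with 1 group no test over samples was possible. A replicate cut to its strongest peaks stands for that replicate at the length of the optimal list. The genes named are the 20 highest in the optimal list, the highest of each replicate and those nearest the threshold, and any others were named after their values were seen. Sequences are those of the highest genes by isotype, leaving out any on or identical to genes on a chromosome not shown. Scoring and intervals were tested on simulated data. The rule for the members uses no measured value, but this class of genes, the gene lists and the comparisons were chosen with earlier results of these data known, and those described as added were chosen after the values reported here were seen. Tables came from pandas 2.3.3 and numpy 2.4.6 under Python 3.11.15, and figures from matplotlib 3.10.9.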

Additional observations from a re-analysis of the deposited data

How the results depend on the processing

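No paired analysis was possible because the series holds 1 group. Of 78 alternatives, 50 kept direction and side of 0 or moved little. Among these 50 are the alternatives with RefSeq genes. They could only repeat the main values, because all 612 genes have the same position and strand there. The count of 43 genes was 22 with the summit inside the gene, 23 in the upper part of the optimal list by signal and 182 in the pooled list, and without a replicate it ranged from 31 to 37. The median percentile of tRNA summits, 56.0, was 86.6 in the pooled list and 37.3 in the upper part, and ranged from 40.98 to 53.4 without a replicate. The count in both replicates, 136, was 30 with the summit inside, 88 in lists as long as the pooled one and 18 in lists as long as the optimal one. The median position, 15 bp, was 37.5 bp in the pooled list and ranged from 8 to 17 bp without a replicate.

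The excess on X fell to 0.0518 points with the summit inside the gene and to 2.59 points in the pooled list, ranged from 4.83 to 7.27 points without a replicate, and was 8.23 points in isolated genes. The deficit of clustered genes had an interval that includes 0 in the upper part (-1.29 points), in the pooled list (-7.02), at 500 bp (-3.21) and 5 kb (-3.83), and ranged from -2.73 to -2.25 without a replicate. Genes inside a host differed from those outside by -0.139 points on X and 4.78 on autosomes, and from -1.0 to 0.859 without a replicate. The strand difference was -0.451 in the upper part, -1.38 in the pooled list and -0.491 over merged loci, and ranged from -1.68 to 1.15 without a replicate. The deficit of single sequences was -4.61 among genes with the wider A box pattern and ranged from -4.78 to -2.41 without a replicate, with intervals that include 0 for the pattern and without replicate 1 (-2.41). The splits by X, autosomes and isolated genes, and every value for single sequences, were added after the data were seen. The causes of these changes were not tested. Heights carry no read depth, so precision beyond the replicate lists is unknown, and the list of replicate 2 has exactly 30000 peaks, which may be a preset length.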
